A study of Mus musculus with 10 samples.

Results

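The 31 genes described here belong to the homeostatic signature of microglia, macrophages that live in the brain and spinal cord. They were taken by gene name from 24060 names in each deposited file, and all 31 were found and passed the filter on low values. RNA had been measured in 10 libraries from C57BL/6 mice of 3 to 5 months, and the cells of every group had been pulled out with CD11b magnetic beads. The groups were Trem2-/- (KO: library 6 female, 9 and 12 male), Trem2+/- (Het: 5 and 11 female, 8 male) and Trem2+/+ (WT: 1 and 10 female, 4 and 7 male). CD11b, part of an integrin, is also found on monocytes, neutrophils and border macrophages. The labels do not state which part of Trem2 the allele removes, or whether 1 mouse or several gave a library. The p-values therefore rest on how far libraries of a group differ, which may be technical. Values are RPKM, reads scaled by the authors to the length of the gene and to the reads of the library.

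Microglia in healthy brain keep a set of genes, many of which other brain cells and most other macrophages express weakly or not at all. TGF-beta signalling, the transcription factor PU.1 and the cytokine receptor CSF1R maintain that state. The set spans sensing receptors, adhesion molecules, transporters, lysosomal and secreted proteins. Microglia lower many of these genes when they respond to injury, amyloid or demyelination. TREM2 is a lipid-sensing receptor that signals through the adaptor TYROBP and takes part in that response.

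To show the regulatory sequence of the most abundant member and of the 2 leading receptors, the RefSeq promoter windows (GRCm38.p6, 250 bases before to 50 after the transcript start, minus strand, written 5′ to 3′) of Cst3 at chr2:148875463-148875762, Cx3cr1 at chr9:120068247-120068546 and Fcrls at chr3:87263475-87263774 are given. Capitals mark, on either strand, the letters GAGGAA or GGAAGT, found in sites of PU.1 and related ETS factors, and CTA and TAG with any 4 bases between them, a pattern looser than the MEF2 site, which has only A or T there.
Cst3: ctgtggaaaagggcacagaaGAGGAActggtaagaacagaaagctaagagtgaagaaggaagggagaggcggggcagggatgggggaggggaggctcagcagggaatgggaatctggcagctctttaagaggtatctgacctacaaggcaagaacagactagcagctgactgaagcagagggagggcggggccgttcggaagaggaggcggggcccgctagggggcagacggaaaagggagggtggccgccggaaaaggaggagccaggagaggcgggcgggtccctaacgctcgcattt
Cx3cr1: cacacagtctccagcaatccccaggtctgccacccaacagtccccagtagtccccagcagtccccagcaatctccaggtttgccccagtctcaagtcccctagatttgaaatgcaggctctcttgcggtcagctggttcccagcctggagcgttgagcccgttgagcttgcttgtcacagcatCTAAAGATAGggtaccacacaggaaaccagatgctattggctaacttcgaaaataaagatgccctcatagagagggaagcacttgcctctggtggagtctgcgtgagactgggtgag
Fcrls: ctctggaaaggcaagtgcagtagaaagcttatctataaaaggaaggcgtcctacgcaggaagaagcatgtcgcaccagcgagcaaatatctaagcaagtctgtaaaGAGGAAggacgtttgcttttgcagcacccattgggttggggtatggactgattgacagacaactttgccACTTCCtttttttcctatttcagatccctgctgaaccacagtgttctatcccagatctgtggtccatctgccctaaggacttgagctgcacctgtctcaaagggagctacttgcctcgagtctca
The RefSeq table held windows for 21 of the 31 genes, 26 windows in all. GAGGAA was in 34.6% of these windows and in 28.3% of all 32851 windows of the table. GGAAGT was in 30.8% against 23.8%, the loose pattern in 3.85% against 3.69%, and CAGAC, the letters of a SMAD site in the TGF-beta pathway, in 69.2% against 49.6%. The stricter MEF2 form, with only A or T between CTA and TAG, was in 0 of the 26 windows, so not in that of Cx3cr1, and in 0.557% of all windows. GAGGAA and GGAAGT can overlap, as they do in a window of Slco2b1. A match describes the letters in the window only.

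Trem2 (ENSMUSG00000023992.14, chr17:48346401-48354147, plus strand, GENCODE M21 on GRCm38) followed the labels. It was at 28.3, 21.4 and 23.9 RPKM in KO libraries 6, 9 and 12, at 105, 85.2 and 91.7 RPKM in Het libraries 5, 8 and 11, and at 170.1, 185, 237 and 174 RPKM in WT libraries 1, 4, 7 and 10. The groups did not overlap, and the mean was 12.8% of WT in KO and 49.0% of WT in Het. In KO against WT the log2 fold change was -2.93 (SE 0.14, adjusted p = 5.45e-06, limma). In Het against WT it was -1.02 (adjusted p = 0.238, limma), and -1.004 with an adjusted p of 0.0325 by limma-voom on the recovered reads. The libraries held 17611899 to 45039672 recovered reads, and the members had 441 to 289303 reads each. Summed neutrophil markers (12 genes, all detected) stood at 372 to 2303 RPKM in KO libraries, highest in KO 6, at 144 to 358 RPKM in Het and at 104 to 224 RPKM in WT. Summed monocyte markers (11 genes, all detected) were 75.1 to 159.8 RPKM in KO, highest in KO 6, 63.8 to 77.2 RPKM in Het and 54.6 to 70.6 RPKM in WT. The neutrophil sums of KO 9 and KO 12, at 372 and 382 RPKM, were also above those of all Het and WT libraries. The part of these cells in the members' values was not tested. As 0 of 31 members were called with or without KO 6, those calls cannot show it. Summed neuron markers were 3.77 to 8.17 RPKM over the 10 libraries. In such bulk libraries, fewer cells of a type and less RNA per cell cannot be told apart.

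None of the 31 genes passed the test in KO against WT, Het against WT, KO against Het or male against female. Their log2 fold changes ran from -0.17 to 0.26 in Het against WT and from -0.14 to 0.31 in KO against Het. In KO against WT they ran from -0.25 for Lag3 to 0.29 for Crybb1, around a median of 0.05. Over all 13621 genes tested that median was 0.03. The members' median was 0.016 without KO 9, 0.078 without KO 6, 0.075 without WT 7 and 0.014 with median-ratio scaling. The background of calls was as low, at 0.00734% of genes in KO against WT, 0.0% in Het against WT, 0.00734% in KO against Het and 0.044% in male against female (limma, adjusted p under 0.05). By limma-voom on the recovered reads, 0 of 31 were called too. Trem2 was the only gene called in KO against WT and in KO against Het. At an unadjusted p under 0.05 (limma), 0 of 31 members were reached in KO against WT, where the background was 5.13%. The count was also 0 in Het against WT (2.75%) and in KO against Het (3.35%). At such shares few of 31 genes would be reached, so these counts do not set the members apart. In KO against WT it was 3 without KO 6 (background 6.42%) and 3 with array quality weights (7.66%). With runs of library numbers as a block it was 4 (6.42%). The members took 3.61 to 4.13% of each library's reads.

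**Figure D1:**
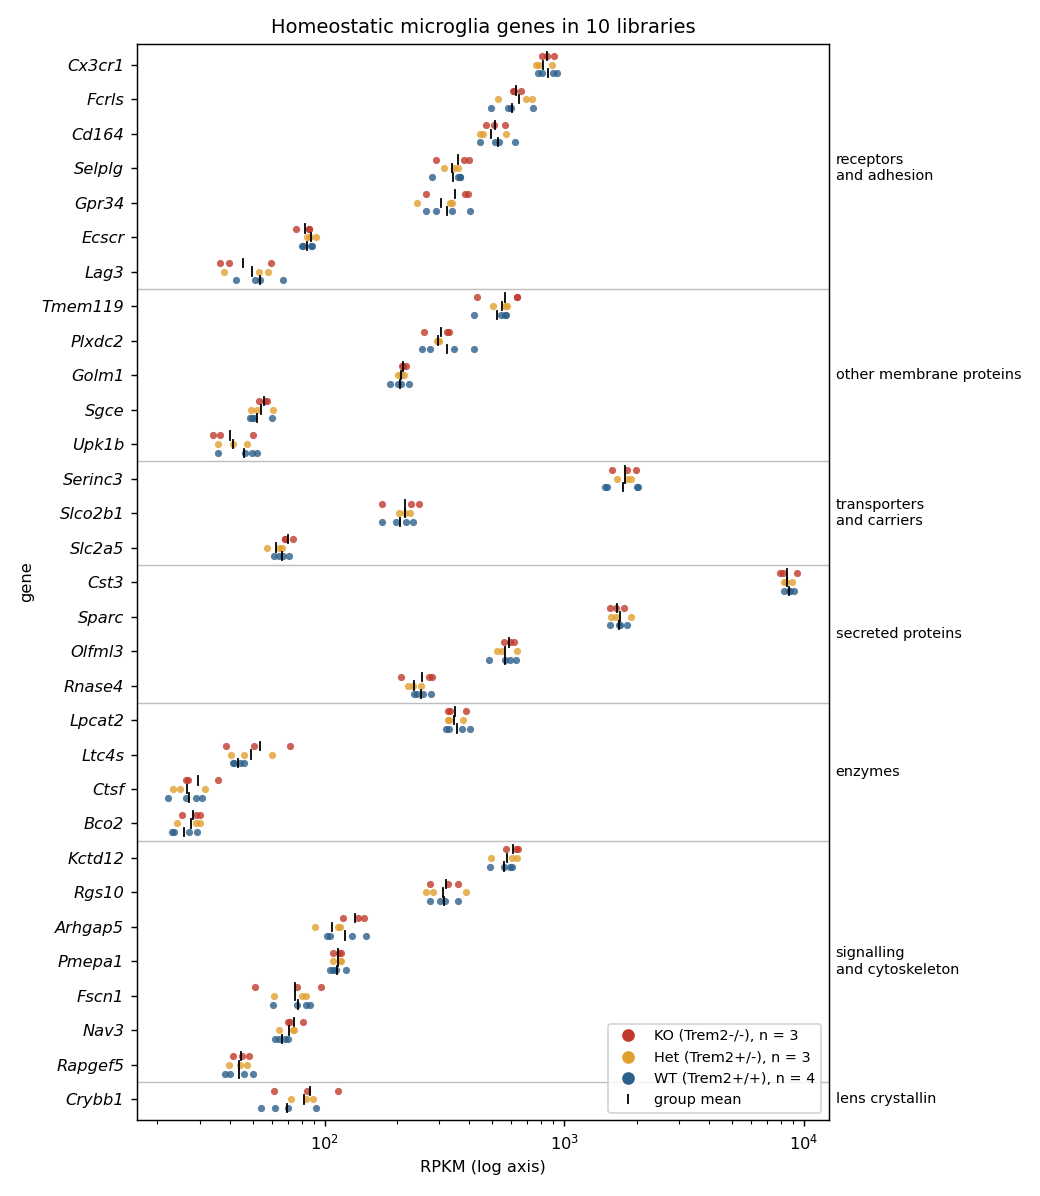
RPKM of the 31 genes on a log axis, 1 point per library, with KO above Het above WT within each gene and a black tick at each group mean. Cst3 stands highest at a mean of 8579 RPKM and Bco2 lowest at 27.1 RPKM, and every pair of groups overlaps except KO and WT for Nav3, and KO and Het for Slc2a5 and Arhgap5.

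The receptors and adhesion molecules were 7 genes with means of 49.9 to 840 RPKM. Cx3cr1, the receptor for the neuronal chemokine fractalkine, was at 904, 842 and 803 RPKM in KO libraries 6, 9 and 12, at 889, 764 and 787 RPKM in Het libraries 5, 8 and 11, and at 777, 927, 897 and 806 RPKM in WT libraries 1, 4, 7 and 10. The 3 groups overlapped, with KO at 99.7% and Het at 95.5% of the WT mean. Fcrls, a scavenger receptor-like gene of mouse microglia, was at 662, 613 and 617 RPKM in KO, 689, 528 and 731 RPKM in Het, and 581, 493, 598 and 741 RPKM in WT, in the same library order. All KO values lay inside the ranges of Het and WT. Cd164, a sialomucin of endosomes and the cell surface, ranged over 472 to 562 RPKM in KO, 443 to 572 RPKM in Het and 445 to 619 RPKM in WT. Gpr34, a receptor for lysophosphatidylserine on chromosome X, ranged over 265 to 394 RPKM in KO, 243 to 340.2 RPKM in Het and 263 to 403 RPKM in WT. Selplg, the selectin ligand PSGL-1, ranged over 292 to 401 RPKM in KO, 314 to 359 RPKM in Het and 281 to 367 RPKM in WT. These 3 genes also had no group apart from the others.

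Lag3, a receptor for MHC class II known from T cells, was at 36.5, 39.9 and 59.8 RPKM in KO, 37.9, 53.1 and 57.8 RPKM in Het, and 53.8, 42.4, 51.1 and 66.7 RPKM in WT. Its KO mean was 84.9% of WT, but KO 12 was higher than 3 of the 4 WT libraries and the SD was 12.6 RPKM in KO and 10.1 RPKM in WT. Summed T and NK cell markers (10 genes) were 2.79 to 4.20 RPKM in KO, 4.67 to 6.29 RPKM in Het and 3.86 to 6.67 RPKM in WT. These sums are near the floor, as only 1 of the 10 genes had a mean of at least 0.5 RPKM. Their part in the Lag3 values was not tested. Ecscr, a transmembrane protein first described in endothelial cells, was at 85.7, 76.0 and 85.7 RPKM in KO, 86.5, 84.2 and 91.6 RPKM in Het, and 80.2, 88.7, 87.9 and 81.3 RPKM in WT. The Ecscr groups overlapped and all 10 values lay within 1.20-fold. Summed brain endothelial markers (12 genes, all detected) were 355 to 416 RPKM in KO, 275 to 419 RPKM in Het and 258 to 434 RPKM in WT, and were not tested against Ecscr.

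Among the other membrane proteins, 5 genes with means of 42.9 to 544 RPKM, Tmem119, a transmembrane protein in wide use as a microglia marker, stood highest. It was at 429.6, 635 and 633 RPKM in KO, 504, 578 and 563 RPKM in Het, and 569.6, 418, 546 and 566 RPKM in WT. KO 6 and WT 4 were the low libraries, and the other 8 lay at or above 504 RPKM. Plxdc2, a plexin-domain receptor, was at 324, 329 and 260.4 RPKM in KO, 293, 296 and 301 RPKM in Het, and 276, 421, 344 and 254 RPKM in WT, so that WT alone spanned the whole range. Golm1, a Golgi membrane protein, was at 211, 217 and 209 RPKM in KO, 215, 203 and 207 RPKM in Het, and 208, 187, 202 and 224 RPKM in WT. KO and Het libraries of Golm1 stayed within 203 to 217 RPKM, inside the WT range. Its exons overlap those of Naa35 on the other strand, at 36.9 to 51.0 RPKM, and the sources used here do not give the counting strand, so reads of the pair cannot be told apart. Sgce, an imprinted sarcoglycan, ranged over 53.2 to 57.1 RPKM in KO, 48.9 to 60.9 RPKM in Het and 48.7 to 59.9 RPKM in WT, and Upk1b, a tetraspanin named for the bladder, over 34.0 to 50.1 RPKM in KO, 35.7 to 47.3 RPKM in Het and 35.8 to 52.3 RPKM in WT.

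The transporters and carriers were 3 genes. Serinc3, a multipass membrane protein of the serine incorporator family, was at 1982, 1818 and 1576 RPKM in KO, 1895, 1661 and 1821 RPKM in Het, and 1470.2, 2002, 2020.5 and 1499.8 RPKM in WT. The WT libraries of Serinc3 held both its lowest and its highest value. Serinc3 overlaps 0610039K10Rik, at 1.71 to 5.54 RPKM, on the other strand, as Ecscr does 1700066B19Rik, at 0.0497 to 0.857 RPKM. Slco2b1, an organic anion transporter, was at 174, 229 and 246 RPKM in KO, 204, 216 and 226 RPKM in Het, and 218, 174, 198 and 233 RPKM in WT. Its low libraries were again KO 6 and WT 4. Slc2a5, the fructose transporter GLUT5, was at 73.5, 68.1 and 68.4 RPKM in KO, 64.3, 57.3 and 66.0 RPKM in Het, and 61.4, 64.4, 66.9 and 70.9 RPKM in WT. Its KO and Het libraries did not overlap, with a log2 fold change of 0.19 in KO against Het (SE 0.09, 95% interval -0.01 to 0.40, adjusted p = 0.999, limma).

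The secreted proteins held the most abundant RNA. Cst3 (ENSMUSG00000027447.6), which encodes cystatin C, an inhibitor of cysteine proteases, ranked 1 of all genes by mean RPKM. It was at 8183, 9374 and 7949 RPKM in KO, 8380.5, 8218 and 8903 RPKM in Het, and 8778, 8241, 9121 and 8645 RPKM in WT. The lowest and the highest of the 10 were both KO libraries. Sparc, a matricellular glycoprotein that endothelial cells and astrocytes express too, was at 1552, 1768 and 1640.5 RPKM in KO, 1638, 1567 and 1905 RPKM in Het, and 1549.8, 1684, 1831 and 1707 RPKM in WT. The Sparc means differed by less than 1 SD, at 1653 ± 109 RPKM in KO, 1703 ± 178 RPKM in Het (SD, n = 3 each) and 1693 ± 115 RPKM in WT (SD, n = 4). Olfml3, an olfactomedin-like glycoprotein, ranged over 559.8 to 614 RPKM in KO, 521 to 631 RPKM in Het and 482 to 630.0 RPKM in WT. Rnase4, a secreted ribonuclease, ranged over 208 to 281 RPKM in KO, 222 to 253 RPKM in Het and 236 to 276 RPKM in WT. Rnase4 shares exons on the same strand with Ang, listed at 65.4 to 95.7 RPKM, so its level is uncertain.

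The 4 enzymes had means of 27.1 to 351 RPKM. Lpcat2, a lysophospholipid acyltransferase that makes platelet-activating factor, was at 390.1, 333 and 326 RPKM in KO, 377, 328 and 331 RPKM in Het, and 320.1, 405, 375 and 331 RPKM in WT. Ltc4s, leukotriene C4 synthase, was at 38.8, 50.4 and 71.7 RPKM in KO, 40.7, 45.8 and 60.4 RPKM in Het, and 41.8, 41.3, 45.8 and 44.1 RPKM in WT. WT libraries of Ltc4s lay within 41.3 to 45.8 RPKM, while KO held both the lowest and the highest value. Bco2, a mitochondrial enzyme that cleaves carotenoids, ranged over 25.4 to 30.2 RPKM in KO, 24.1 to 30.1 RPKM in Het and 23.1 to 29.2 RPKM in WT, with a log2 fold change of 0.15 in KO against WT (adjusted p = 0.991, limma). Ctsf, a lysosomal cysteine cathepsin, ranged over 26.3 to 35.9 RPKM in KO, 23.1 to 31.5 RPKM in Het and 22.2 to 30.8 RPKM in WT.

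The signalling and cytoskeleton group, 7 genes, was led by Kctd12, an auxiliary subunit of GABA-B receptors, and Rgs10, which speeds GTP hydrolysis by G proteins. Kctd12 was at 625, 638 and 568 RPKM in KO, 636, 492 and 603 RPKM in Het, and 491, 557, 591 and 601 RPKM in WT. Rgs10 was at 360.0, 327 and 275 RPKM in KO, 389, 264 and 283 RPKM in Het, and 301, 358, 318 and 274 RPKM in WT. Both genes had their spread inside each genotype. Pmepa1, a TGF-beta-induced inhibitor of SMAD signalling, was at 117, 108 and 115 RPKM in KO, 116, 117 and 108 RPKM in Het, and 105, 123, 111 and 108 RPKM in WT. Rapgef5, an exchange factor for RAP GTPases, ranged over 41.2 to 48.3 RPKM in KO, 39.8 to 47.3 RPKM in Het and 38.4 to 50.2 RPKM in WT.

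Nav3 (ENSMUSG00000020181.16, chr10:109681259-110456204, minus strand), a microtubule-associated neuron navigator, was at 70.4, 81.0 and 71.9 RPKM in KO, 73.8, 74.4 and 64.2 RPKM in Het, and 64.6, 69.9, 68.3 and 61.8 RPKM in WT. All 3 KO libraries lay above all 4 WT libraries. Nav3 was the only member whose KO and WT libraries did not overlap, 1 of 31, and 4.59% of all genes tested had that pattern. The log2 fold change was 0.15 (SE 0.09, 95% interval -0.04 to 0.34, adjusted p = 0.978, limma). No member had Het and WT libraries apart, against a background of 4.53%. KO and Het libraries were apart for 2 of 31, Slc2a5 and Arhgap5, against 7.42%. Arhgap5, a GTPase-activating protein for small GTPases of the cytoskeleton, was at 138, 146 and 119 RPKM in KO, 115, 91.0 and 114 RPKM in Het, and 102, 149, 129 and 105 RPKM in WT, so the WT libraries spanned all other values except the lowest Het library. Its log2 fold change was 0.31 in KO against Het (SE 0.16, 95% interval -0.05 to 0.67, adjusted p = 0.999, limma). Without Het 8 it was 0.07.

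Fscn1, the actin-bundling protein fascin, and Crybb1 (ENSMUSG00000029343.17, chr5:112255815-112269585, plus strand), a crystallin named for the lens, had the highest ratios of highest to lowest library. Fscn1 was at 51.3, 76.2 and 96.6 RPKM in KO, 61.4, 80.6 and 83.6 RPKM in Het, and 86.9, 60.8, 76.3 and 83.6 RPKM in WT. Crybb1 was at 61.1, 84.0 and 114 RPKM in KO, 72.5, 83.6 and 89.4 RPKM in Het, and 70.5, 54.0, 61.6 and 92.1 RPKM in WT. In both genes KO 6 and KO 12 lay far apart, and the groups overlapped. The log2 fold change of Crybb1 was the highest of the 31 genes in KO against WT, at 0.29 (SE 0.22, 95% interval -0.19 to 0.77, adjusted p = 0.991, limma). Without KO 6, the library with the highest neutrophil and monocyte marker sums, it was 0.65 (adjusted p = 0.731, limma). It was 0.07 without KO 12 and 0.14 without WT 4.

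The precision of these comparisons differed between genes. In KO against WT, 25 of 31 genes had a 95% interval of the log2 fold change wholly within 0.5 either way, a 1.41-fold difference, against 44.1% of all genes tested and 83.4% of the 2085 genes at or above the lowest member's mean of 27.1 RPKM. All 31 lay within 1 log2, against 89.1% of all genes and 98.8% of the 2085. The 6 genes whose intervals reached past 0.5 were Crybb1, Ltc4s, Gpr34, Fscn1, Upk1b and Lag3. The count within 0.5 was 26 of 31 in Het against WT, where it was 45.7% of all genes and 85.7% of the 2085. It was 25 of 31 in KO against Het (39.1% and 82.2%) and 30 of 31 in male against female (56.3% and 89.4%). These comparisons share libraries, as KO and Het were both set against the same 4 WT libraries. The median log2 fold change of the members was -0.01 in Het against WT and 0.04 in KO against Het. It was -0.03 in KO against Het without Het 8.

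**Figure D2:**
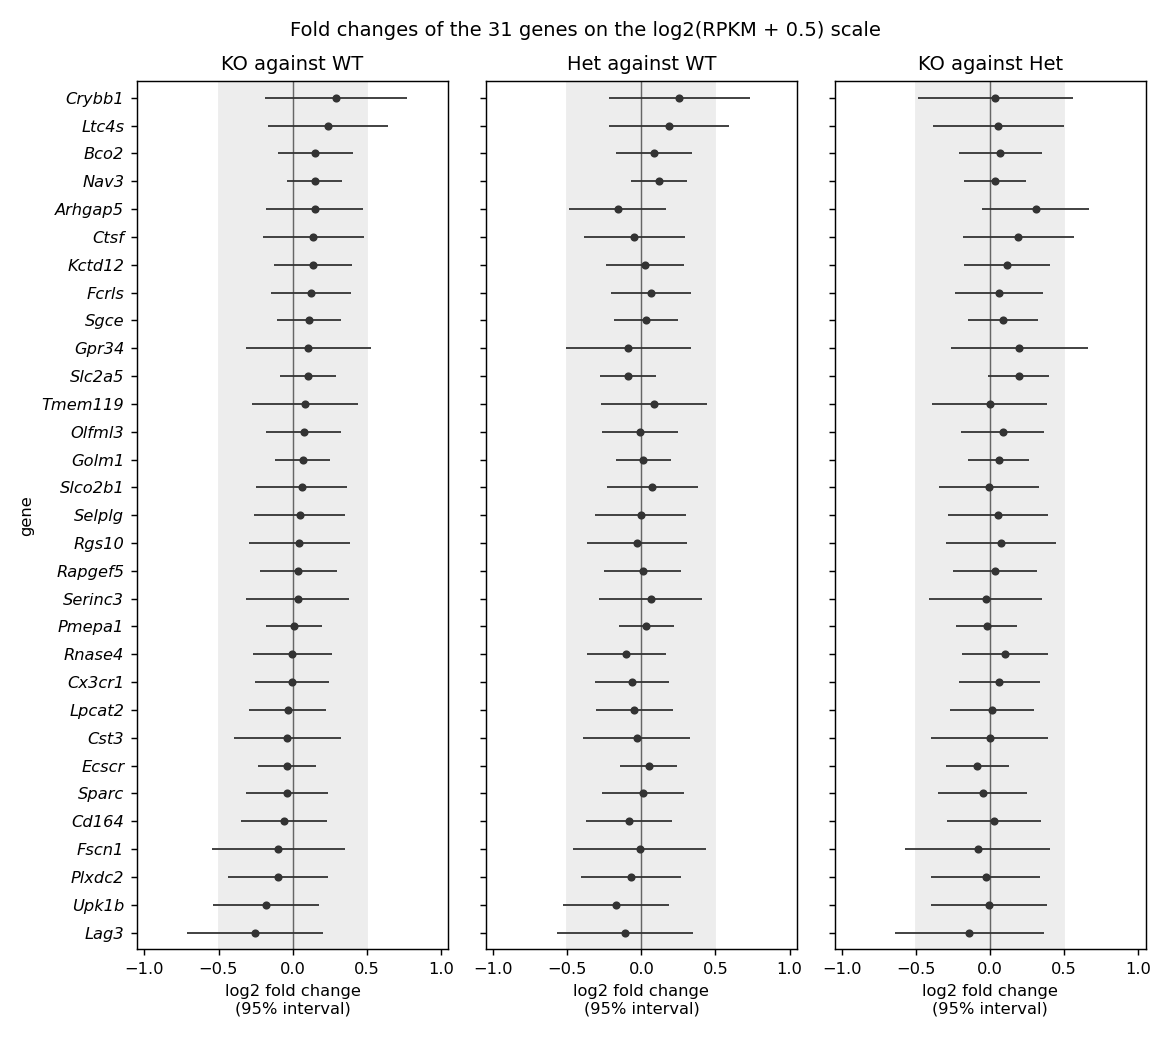
Log2 fold change of each of the 31 genes with its 95% interval (limma), in KO against WT, Het against WT and KO against Het, ordered by the value in KO against WT. The grey band spans 0.5 either way, all intervals include 0, and the widest belong to Crybb1, Lag3 and other genes with a wide spread over libraries.

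Between the sexes, Fcrls was the 1 member at an unadjusted p under 0.05, where the background was 5.34% of genes. It was at 493 to 617 RPKM in the 5 male libraries (median 598 RPKM) and at 581 to 741 RPKM in the 5 female libraries (median 689 RPKM), and the ranges overlapped. Its log2 fold change in male against female was -0.27 (SE 0.10, 95% interval -0.50 to -0.04), and it was not called, with an adjusted p of 0.919 by limma. No member had male and female libraries apart, against 0.903% of all genes.

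How tightly the members held was read from the ratio of the highest to the lowest of the 10 libraries. It was lowest for Pmepa1 at 1.17, Cst3 at 1.18, Ecscr at 1.20 and Golm1 at 1.20. The ratio was highest for Crybb1 at 2.11, Fscn1 at 1.88, Ltc4s at 1.85 and Lag3 at 1.83. The median was 1.37, and 20 of 31 genes stayed under 1.5-fold, against 29.3% of all genes tested. Among the 2085 genes of like or higher level, the share was 67.0% and the median ratio 1.39, and the members' share, 20 of 31, was close to it. The residual SD on the log2 scale had a median of 0.164 over members, 0.230 over all genes and 0.150 over the genes of like or higher level. For 14 of 31 members it lay below the SD that limma's trend gives at their level, against 48.7% of all genes. Within genotypes, the median coefficient of variation of the members was 10.1% in KO, 10.1% in Het and 11.3% in WT. Over the genes of like or higher level it was 10.4% in KO, 8.93% in Het and 9.49% in WT. The members' median was thus higher than that of those genes in Het and WT, and close to it in KO. These differences were not tested. The ratio of highest to lowest library went the other way, with a median of 1.37 for members against 1.39. Without WT 4 the members' median in WT was 8.14%. No library was left out of KO or Het, or for other genes, so 8.14% cannot be compared with those values.

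Extreme values of the members were most frequent in WT 4. KO 12 came next, with 29.0% of members against 27.4% of the genes of like or higher level. WT 4 held the lowest value of 8 members and the highest value of 8 others, 51.6% of the 31 genes, and an extreme value of 39.2% of the genes of like or higher level. The median deviation of the members from their means ran from -0.10 in WT 1 and Het 8 to 0.07 in KO 9 on the log2 scale. The direction in a library went with the GC content of the transcript, the share of G and C bases. Over the 31 genes, the Pearson correlation of deviation with GC content was -0.75 in KO 6, -0.36 in KO 9 and 0.77 in KO 12. It was -0.47 in Het 5, 0.64 in Het 8 and 0.48 in Het 11, and 0.52 in WT 1, -0.70 in WT 4, -0.44 in WT 7 and 0.54 in WT 10. Each is a description over genes of 1 library, which share its depth and preparation, and both signs occurred in every genotype. By library number, the sign was negative in 4, 5 and 6 and positive in 10, 11 and 12, while 7 and 9 were negative and 8 positive. Each of these runs of consecutive numbers holds 1 KO, 1 Het and 1 WT library, and the labels do not state whether a run was handled together. Over 2024 genes of like or higher level with a GC value, it ran from -0.36 to 0.41.

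**Figure D3:**
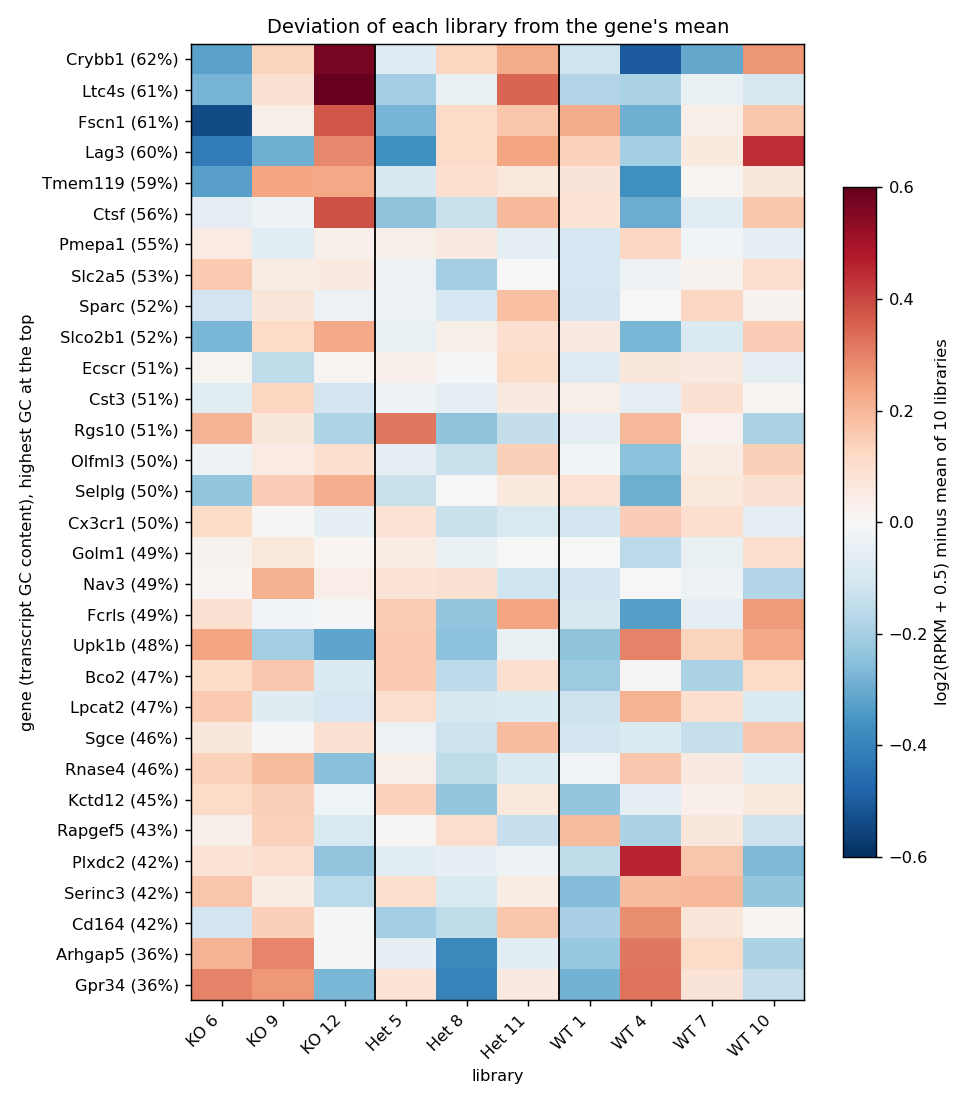
Log2 deviation of each gene in each library from its mean over the 10 libraries, with genes ordered from highest to lowest transcript GC content and libraries in the order KO, Het, WT (black lines divide genotypes). KO 6 and WT 4 are low in the top rows and mostly high in the bottom rows. Exceptions there are Cd164 in KO 6, at -0.11, and Rapgef5 in WT 4, at -0.19. KO 12 is the other way round, though only at -0.005 for Arhgap5 and -0.008 for Cd164.

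The 6 members with a GC content of 55% or more, Tmem119, Ltc4s, Crybb1, Lag3, Ctsf and Fscn1, had a median residual SD of 0.312, and 0 of 6 stayed under 1.5-fold. The 19 members at 45% to 55% had a median of 0.136, with 17 of 19 under 1.5-fold, and the 6 below 45% had 0.217, with 3 under 1.5-fold. These limits were chosen after the values were seen, and genes outside the 31 were not counted by GC class. A trend on GC content, fitted over all genes tested that had a GC value, was then removed within each library. The members still followed GC content afterwards, with correlations from -0.47 in KO 6 to 0.53 in KO 12. After this removal the residual SD was 0.202 for Crybb1, 0.169 for Fscn1, 0.209 for Lag3 and 0.123 for Tmem119, against 0.357, 0.332, 0.341 and 0.242 as deposited. It was larger for Pmepa1, at 0.151 against 0.078. The SD was smaller for 21 of 31 members, or 67.7%, against 62.2% of the genes of like or higher level and 60.7% of all genes. Its median went from 0.164 to 0.147 over members, and from 0.150 to 0.137 over the genes of like or higher level. Of the 31 members, 26 then stayed under 1.5-fold, and other genes were not counted on those values. No member was called in any of the 4 comparisons on those values (limma).

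**Figure D4:**
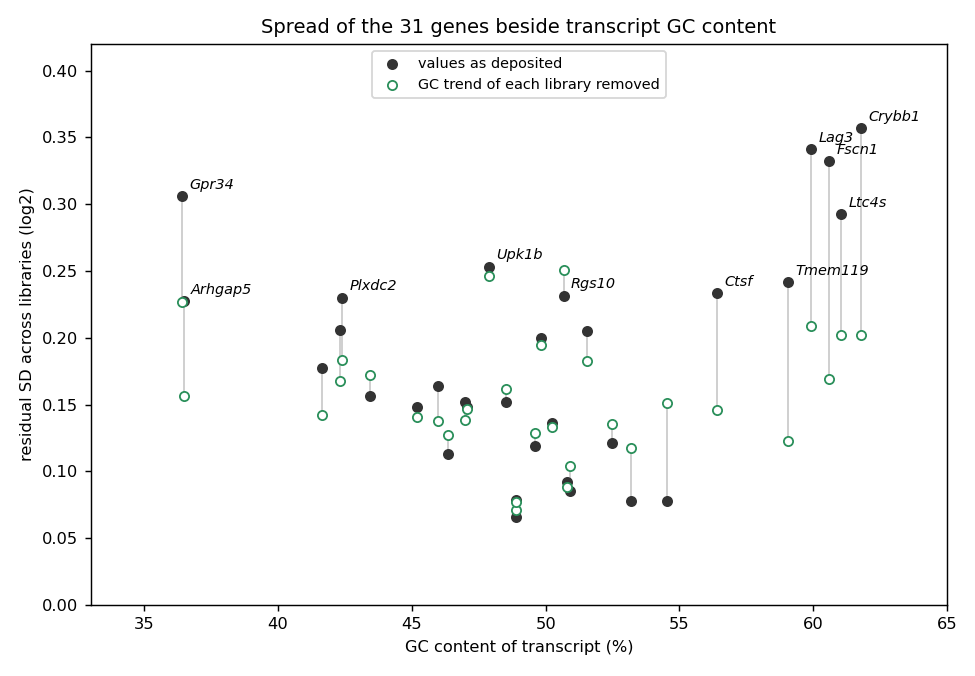
Residual SD of each gene on the log2 scale against the GC content of its transcript, as deposited (filled) and after each library's GC trend over all genes was removed (open). A grey line joins the 2 values of a gene. The filled points above 55% GC lie at 0.234 to 0.357 and their open partners at 0.123 to 0.209.

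Genes of related sets were counted in KO against WT from lists of the field. Of 30 further homeostatic genes, 0 were called in KO against WT. Their median log2 fold change was 0.01, and 19 of 30 stayed under 1.5-fold. Among the most abundant, the purine receptor gene P2ry12 and the growth factor receptor gene Csf1r had log2 fold changes of 0.08 and 0.03 in KO against WT. Of 13 TGF-beta pathway genes, 0 were called, and Tgfbr1, Skil and Tgfbr2 had log2 fold changes of -0.01, -0.02 and -0.03. Of 25 genes of the disease-associated state, in which microglia lower homeostatic genes, 0 were called in KO against WT. At an unadjusted p under 0.05 (limma), 7 of the 25 were lower in KO, against 1.81% of all genes, and their median log2 fold change was -0.14. The lists were chosen with earlier results of these data known, so this count is a description and no independent test. Genes of like level were not counted beside it. The most abundant of the 25, B2m, Ctsd and Fth1, had log2 fold changes of -0.21, 0.01 and -0.10. Of 19 immediate early genes, which respond to handling of cells during isolation, 0 were called and the median was 0.01. Zfp36, Egr1 and Dusp1, the most abundant of these, had log2 fold changes of -0.09, -0.20 and -0.27.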

How the data were processed

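RNA-seq libraries had been made from total RNA (RNeasy) with the Ovation RNA-seq system v2, an amplifying cDNA kit, and sequenced on a HiSeq4000, per the labels' protocols. The authors deposited linear RPKM values, 1 file per library. Per the submitters' processing notes, mm10 was the build, and STAR, HTSeq, edgeR and limma were the tools. The sources used here give neither the annotation nor the counting strand. The members and gene lists were chosen with earlier results of these data known.

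From the deposited RPKM, 27 names that a spreadsheet had turned into dates were left out. Whole reads were recovered within 0.02 reads for all 19983 genes above 0 (100.0%). The 13621 genes that reached 0.5 RPKM in 3 or more libraries were tested with limma 3.58.1 (trend, R 4.3.3) on log2(RPKM + 0.5), with genotype and sex over all 10 libraries (6 residual degrees of freedom), and p-values were Benjamini-Hochberg adjusted over all genes tested. A gene was called at an adjusted p under 0.05. The log2(RPKM + 0.5) scale understates changes of low genes. The SD is that of the values within a genotype, and the residual SD that of the fit. Scripts were tested on simulated data. Alternatives were other pseudocounts (0.1 and 1), no filter or 1 RPKM, no sex term, median-ratio scaling, array quality weights, limma-voom on the recovered reads and leaving out each library. Those without KO 6 and WT 4 together, with a lowess trend on GC content (span 0.5) removed in each library, and with runs of consecutive library numbers as a block, were chosen after seeing the data. Values are given for every library for the 2 most abundant members of each role group, members at an unadjusted p under 0.05, the 4 lowest and the 4 highest in the ratio of highest to lowest library, and also for Nav3, Slc2a5 and Arhgap5, chosen after their values were seen. From other lists the 3 most abundant genes are named, except that some results are not reported here. Coordinates and overlaps come from GENCODE M21 on GRCm38, the assembly that mm10 denotes. Each member had at least 441 reads in every library.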

Additional observations from a re-analysis of the deposited data

Results flagged for a closer look

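The 4 WT libraries were checked for a library far from the others in 48 measures: the 31 genes, Trem2, the members' median deviation and the summed lists. KO and Het, with 3 libraries each, were not checked. A library stood apart in 3 of the 48, and chance alone sets one apart in about 1 in 20. Tmem119 was at 418 RPKM in WT 4, below the other WT libraries at 546 to 569.6 RPKM. Selplg was at 281 RPKM in WT 4, also below the others. Sgce was at 59.9 RPKM in WT 10, above the others. WT 4 also held the lowest or highest value of 16 of the 31 genes.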

How the results depend on the processing

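None of the 2604 tests of a member under the 21 alternatives gave a call, and the lowest adjusted p was 0.519 (limma with number runs as a block, Fcrls in male against female). Over all genes, 2 were called in KO against WT with array quality weights, 2 with limma-voom, 2 without KO 6 and WT 4 together, and 1 to 3 when a library was left out, the 3 being without KO 6. In Het against WT, limma-voom called 1 gene, Trem2, at a log2 fold change of -1.004. The members' median log2 fold change in KO against Het was -0.032 to 0.097 when a library was left out, lowest without Het 8, and 0.12 without KO 6 and WT 4 together. The median in KO against WT was 0.016 (without KO 9) to 0.078 (without KO 6) when a library was left out, and 0.017 with the GC trend removed. Arhgap5 in KO against Het ran from 0.067 without Het 8 to 0.40. Arhgap5 in Het against WT ran from -0.25 to 0.055 when a library was left out, and was above 0 without Het 8. The cause was not tested for any of these. Without KO 6, 3 members (Slco2b1, Ltc4s and Crybb1) had an unadjusted p under 0.05 in KO against WT, as had 6.42% of all genes, and 3 (Bco2, Lag3 and Nav3) with array quality weights, as had 7.66%. The number of members under 1.5-fold was 24 without WT 4, 20 to 22 without any other single library and 24 without KO 6 and WT 4 together. Leaving out a library cannot raise a ratio of highest to lowest, so this number could not fall. Other genes were not counted without these libraries. With 3 or 4 libraries a group, the 95% intervals of 6 members in KO against WT reached past 0.5 on the log2 scale. The genotypes share no library number, so no pairing by shared number could be fitted. A fit with the runs of consecutive numbers (4 to 6, 7 to 9, 10 to 12) as a replicate block, without WT 1, was added after seeing the data, although the labels do not tie a run to a day or batch. It called 0 of 31 members in each comparison, with 3 residual degrees of freedom. In KO against WT it gave Crybb1 0.31, and 4 members had an unadjusted p under 0.05 (Upk1b and Lag3 lower, Crybb1 and Ltc4s higher), as had 6.42% of all genes. KO minus WT had the same sign in all 3 runs for 12 of 31 members, 7 higher and 5 lower, against 25.5% of all genes. For Het minus WT this held for 8 of 31 against 24%, and for KO minus Het for 6 of 31 against 22.8%. These signs were read without a sex term, although KO 6 and WT 4, and KO 12 and WT 10, differ in sex. So do Het 5 and WT 4, and KO 12 and Het 11.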
